A study of Mus musculus with 64 samples.

Results

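Immature neurons and the progenitors they arise from express a set of genes that mature neurons express weakly, and 10 of these genes are described here in the cortex and hippocampus of mice that carry 1 copy of an Arg87Cys change in *Cyfip2*. The genes are *Sox4*, *Sox11*, *Eomes*, *Neurod1*, *Dcx*, *Tubb3*, *Stmn1*, *Dpysl3*, *Igfbpl1* and *Draxin*. They were chosen by name, through the Ensembl identifier of each symbol, and all 10 of 10 were found among the 18432 genes of the table. *Cyfip2* encodes a subunit of the WAVE complex, which controls actin assembly, and this change models an early-onset epileptic disorder, West syndrome. Heterozygous *Cyfip2*+/R87C mice, labelled knock-in (KI), and wild-type (WT) littermates were on the C57BL/6N strain. Frontal cortex and hippocampus were sampled at postnatal week (PWK) 1, 7, 14 and 28, with 4 KI and 4 WT libraries for each age and region, which gave 16 groups and 64 libraries. Per the study's description, KI mice have spasms as neonates and, after a seizure-free period, recurrent seizures as adults. It also reports deaths of KI mice from around PWK 14 on, so the KI libraries of PWK 28 came from survivors. The change alters a codon, so the level of *Cyfip2* does not test the genotype labels. The labels call the libraries of a group replicates and do not say whether each came from its own mouse, so p-values measure the spread between libraries, which may be technical.

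New neurons pass through a fixed order of states. Progenitors that express the T-box factor *Eomes* give rise to glutamatergic neuroblasts, the bHLH factor *Neurod1* drives their differentiation, and the SoxC factors *Sox4* and *Sox11* switch on genes of the young neuron such as *Dcx* and *Tubb3*. In the cortex neurogenesis is largely over at birth. In the dentate gyrus of the hippocampus granule neurons are still being made after birth, at a rate that falls with age. The genes also have other sites of expression: *Neurod1* stays on in mature granule and pyramidal neurons, *Stmn1* and *Tubb3* stay on in many adult neurons, and *Eomes* marks the mitral and tufted neurons of the olfactory bulb. In bulk tissue, fewer cells of a type and less RNA per cell cannot be told apart.

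Promoters were available for 7 of the 10 genes, from RefSeq on GRCm38.p6. There was none for *Igfbpl1*, *Stmn1* and *Dpysl3*. The 250 bases before the RefSeq start of *Sox11*, *Sox4*, *Neurod1* and *Dcx* are printed because these genes stand for successive steps of the neuroblast programme and were lower together in WT mice after PWK 1. Capitals mark every match, on either strand, to CANNTG (the E-box, which bHLH factors such as Neurod1 bind), ACAAAG (a SOX-type motif), CCAAT and TATAAA. The windows are chr12:27342719-27342968, chr13:28953700-28953949, chr2:79456637-79456886 and chrX:143933220-143933469, all on the minus strand, written 5′ to 3′ along the gene.
Sox11: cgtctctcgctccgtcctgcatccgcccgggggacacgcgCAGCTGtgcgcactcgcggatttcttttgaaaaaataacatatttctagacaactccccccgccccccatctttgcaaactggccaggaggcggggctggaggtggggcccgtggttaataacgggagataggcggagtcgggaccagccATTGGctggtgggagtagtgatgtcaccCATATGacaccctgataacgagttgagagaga
Sox4: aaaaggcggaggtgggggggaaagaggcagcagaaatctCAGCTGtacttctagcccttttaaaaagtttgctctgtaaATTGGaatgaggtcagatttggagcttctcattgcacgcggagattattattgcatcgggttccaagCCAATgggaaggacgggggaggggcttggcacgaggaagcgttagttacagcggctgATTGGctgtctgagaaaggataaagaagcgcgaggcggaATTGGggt
Neurod1: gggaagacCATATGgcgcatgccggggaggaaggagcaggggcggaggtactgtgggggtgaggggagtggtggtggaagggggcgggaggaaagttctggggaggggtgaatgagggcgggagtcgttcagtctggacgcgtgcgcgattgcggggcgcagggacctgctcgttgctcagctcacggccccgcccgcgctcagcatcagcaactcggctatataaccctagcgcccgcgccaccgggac
Dcx: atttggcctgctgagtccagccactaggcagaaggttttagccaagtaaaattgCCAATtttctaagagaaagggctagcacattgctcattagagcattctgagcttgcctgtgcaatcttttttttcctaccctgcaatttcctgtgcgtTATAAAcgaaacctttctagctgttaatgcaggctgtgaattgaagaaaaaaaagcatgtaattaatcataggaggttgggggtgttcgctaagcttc
*Sox11* and *Sox4* each held the E-box CAGCTG, 210 and 211 bases before the start, and *Sox11* and *Neurod1* each held CATATG. *Sox4* held 4 matches to CCAAT and *Sox11* held 1. *Dcx* held no E-box, 1 CCAAT and 1 TATAAA, the latter 98 bases before the start. No base lay in 2 motifs. Over the 27025 promoters of the same length, 66.0% held CANNTG, 16.5% ACAAAG, 34.5% CCAAT and 13% TATAAA. A match is a description of the letters and not a binding site. GC content was 67.6% in *Neurod1* and 41.6% in *Dcx*, against a median of 52% over all promoters.

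On GRCm38 the annotation places *Sox4* at chr13:28948919-28953713, *Sox11* at chr12:27334264-27342574, *Eomes* at chr9:118478212-118486132, *Neurod1* at chr2:79452521-79456751. It places *Dcx* at chrX:143855842-143933311, *Tubb3* at chr8:123411424-123422015, *Stmn1* at chr4:134468320-134473843, *Dpysl3* at chr18:43320984-43438286, *Igfbpl1* at chr4:45809468-45826923 and *Draxin* at chr4:148098437-148130698. All are protein-coding, and values are sums over the exons and isoforms of a gene. *Eomes*, *Tubb3* and *Stmn1* lie on the plus strand and the others on the minus strand.

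The values in each of the 64 libraries added up to 29.2 to 32.6 M after the authors' scaling, so depth in reads is unknown. Some libraries stood apart. In 5 cortical libraries, KI replicate 1 at PWK 7, KI replicate 3 and WT replicate 3 at PWK 14, and WT replicates 3 and 4 at PWK 28, a sum over 5 olfactory bulb genes (*Tbx21*, *Cdhr1*, *Doc2g*, *Scgn* and *Th*, chosen after values were seen) was high. It reached 2990.4 and 3284 in the 2 libraries of PWK 28, against between 221 and 604 in the other 6, 639.8 and 1012 against between 257 and 345 at PWK 14, and 1483 against between 230.3 and 346 at PWK 7. *Cdhr1* was at 1576 and 1698 in these 2 WT libraries of PWK 28 and at 137 and 115 in the other 2. In KI replicate 3 of PWK 14 the high sum came mainly from *Cdhr1*, at 431 against between 81.6 and 133 in the other KI libraries. Its *Tbx21* (15.9) and *Th* (88.8) were below those of KI replicate 1 (21.9 and 134), so the label rests mainly on 1 gene there. In the cortex of PWK 1, WT replicate 1 had *Drd1*, a receptor of striatal neurons, at 841 against between 321 and 372, and *Sp8*, a factor of ventral forebrain neuroblasts, at 299.7 against between 64.9 and 95.3. In the hippocampus of PWK 14, KI replicate 1 had the proliferation gene *Mki67* at 1466, against between 87.2 and 145 in the other KI libraries. In the cortex of PWK 14, KI replicate 2 held a sum of 4217 over 4 striatal genes (*Drd1*, *Drd2*, *Adora2a* and *Rgs9*, chosen after values were seen), against between 748 and 1363 in the other 7 libraries. Values with and without these libraries are given where a result rests on them.

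The first question was how the genes behave over normal maturation. In WT hippocampus all 10 genes fell between PWK 1 and PWK 7, against 30.4% of all genes tested that were lower (62.2% changed in either direction). In WT cortex 8 of 10 fell, against 32.3% of all genes lower and 65.5% changed in either direction. Fold changes are differences of log2(value + 1), which understates the change of weak genes, and a gene was called at an adjusted p under 0.05 from limma.

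Among the transcription factors, *Sox4*, in the WT hippocampus, was at 3256, 3735, 3097 and 3286 normalized counts at PWK 1 and at 592, 529.6, 641 and 679 at PWK 7. *Sox11* was at 2860.0, 3534, 2888 and 3124 and then at 561, 532, 557 and 567. The ages did not overlap for either gene, and the log2 fold changes were -2.45 (SE 0.09) and -2.48 (SE 0.07). *Eomes* was at 167, 227, 206 and 179.6 and then at 44.2, 33.6, 30.3 and 21.0 (log2 fold change -2.59, SE 0.38). *Neurod1* changed least, from 1618 ± 154 (SD, n = 4) to 720.2 ± 70.0 (SD, n = 4), with a log2 fold change of -1.17 (SE 0.10).

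The cytoskeletal genes covered a wide range. *Dpysl3*, which encodes the collapsin response mediator Crmp4 of growing axons, was at 47524, 53291, 46517 and 56147 in WT hippocampus at PWK 1 and at 1984, 2146, 2374 and 2059.7 at PWK 7, a ratio of means of 23.8. In WT cortex it was at 57522, 80484, 63345 and 75255 and then at 1439, 1629, 1498 and 1461, a ratio of 45.9, the largest of the 10 genes. The log2 fold changes were -4.57 (SE 0.06) and -5.51 (SE 0.10). *Dcx*, which encodes the microtubule-binding doublecortin of migrating neurons, was at 14040.3 ± 1544 (SD, n = 4) and then 1153 ± 166 (SD, n = 4) in hippocampus (log2 fold change -3.61, SE 0.10), and at 16288 ± 2562 (SD, n = 4) and then 2243 ± 72.0 (SD, n = 4) in cortex (-2.85, SE 0.14). *Tubb3*, a neuronal beta-tubulin, fell by 2.16 in hippocampus and by 2.26 in cortex on the log2 scale, and *Stmn1*, which encodes the microtubule-destabilizing stathmin, by 1.77 and 1.25. By PWK 28 *Dpysl3* stood at 3.13% and *Dcx* at 5.54% of its PWK 1 level in hippocampus, *Sox4* at 13.3% and *Neurod1* at 38.4%.

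The secreted factors followed the same course in hippocampus. *Draxin*, which encodes a repulsive guidance protein for axons, was at 749, 1010.2, 846 and 894 at PWK 1 and at 67.1, 54.7, 54.6 and 65.5 at PWK 7 (log2 fold change -3.83, SE 0.18). *Igfbpl1*, which encodes an IGF-binding protein homologue of young neurons, was at 1063, 1399, 1201 and 1212 and then at 117, 147, 80.7 and 138 (-3.35, SE 0.34). In cortex *Draxin* fell by 3.92 (SE 0.30), while *Igfbpl1* (-1.51, adjusted p = 0.0964) and *Eomes* (-0.52, adjusted p = 0.750) did not pass. Both were weak there. *Igfbpl1* was at 351 in the PWK 1 WT replicate 1 that was high in *Drd1* and *Sp8*, and at 32.3, 31.9 and 64 in the others. Cortical *Eomes* ranged from 7.58 to 28.8 at PWK 1, and its PWK 7 values ran from 5.25 to 17.7.

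After PWK 7, between 1 and 3 of the 10 genes passed at each step. WT hippocampal means at PWK 7 were still 2.61 times those of PWK 28 for *Eomes*, 2.46 times for *Igfbpl1* and 2.33 times for *Draxin*. From PWK 7 to PWK 14, *Dcx* fell in WT cortex (log2 fold change -0.53, SE 0.14, limma's adjusted p = 0.0347), the 1 of 10 genes to pass against 5.31% of all genes. It was lost without any 1 of the 4 libraries of PWK 7 or of WT replicates 1, 2 and 4 of PWK 14, with adjusted p up to 0.0933. Without the cortical libraries high in olfactory bulb genes it passed (-0.58, SE 0.09, adjusted p = 0.00298). In WT hippocampus *Dcx* (-0.46, SE 0.10, adjusted p = 0.0129), *Draxin* (-0.70, SE 0.18, adjusted p = 0.0341) and *Dpysl3* (-0.24, SE 0.06, adjusted p = 0.032) fell, 3 of 10 against 5.57% of all genes. Hippocampal *Dcx* was at 1067, 1006, 1384 and 1154 at PWK 7 and at 861, 817, 937 and 723 at PWK 14, without overlap. *Draxin* lost the call without WT replicates 1, 2 or 3 of PWK 14 or 1 or 4 of PWK 7 (adjusted p up to 0.0935), and *Dpysl3* without WT replicates 2 or 4 of PWK 14 or 2, 3 or 4 of PWK 7 (adjusted p up to 0.0830). None of these 3 passed in a fit of the 8 libraries of the 2 ages alone.

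From PWK 14 to PWK 28, *Sox4* fell in WT hippocampus from 663, 556, 682 and 683 to 419.9, 443, 403 and 514 (log2 fold change -0.54, SE 0.09, limma's adjusted p = 0.00156). *Eomes* fell from 31.2 ± 20.9 to 12.4 ± 5.37 (SD, n = 4; -1.21, SE 0.38, adjusted p = 0.0469). These were 2 of 10 genes, against 11.6% of all genes. *Eomes* passed in only 3 of 16 fits that each left out 1 library, those without replicate 4 of PWK 7, replicate 4 of PWK 14 or replicate 1 of PWK 28, with adjusted p up to 0.146. In WT cortex *Neurod1* fell by 0.35 (SE 0.10, adjusted p = 0.0272), 1 of 10 against 15.3% of all genes, and it did not pass without the cortical libraries high in olfactory bulb genes (-0.34, adjusted p = 0.172). It also lost the call without replicates 1, 2 or 3 of PWK 14 or 2 or 3 of PWK 28 (adjusted p up to 0.0779).

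**Figure D1:**
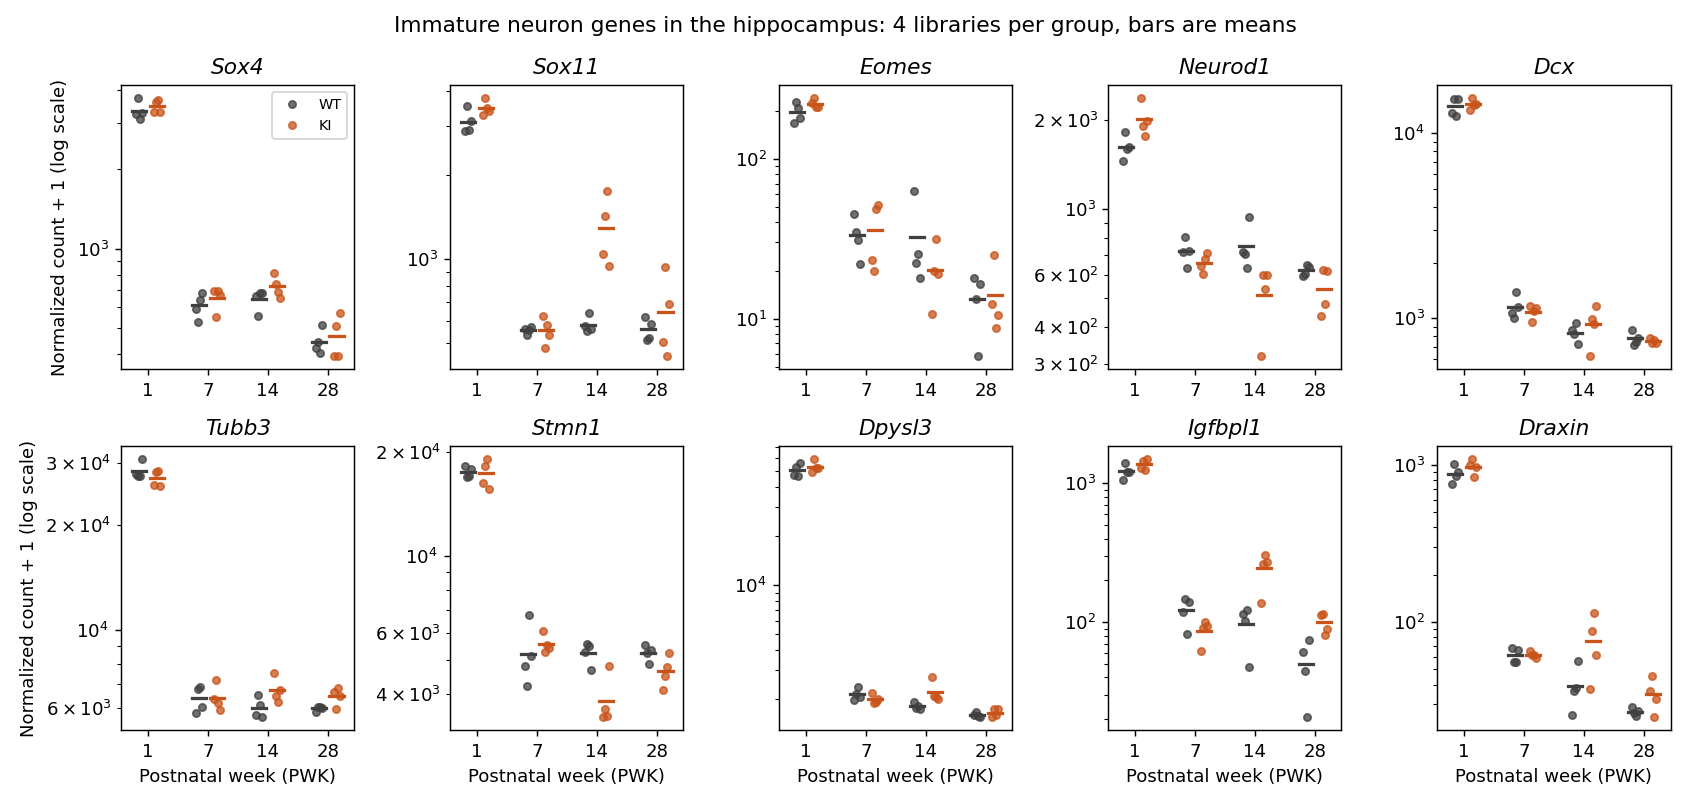
Normalized counts plus 1 (log scale, vertical axis) of the 10 genes in each hippocampal library, by postnatal week (horizontal axis). Points are libraries, 4 per group, in grey for WT and orange for KI mice, and bars are group means. All 10 genes were lower in WT at PWK 7 than at PWK 1, and *Sox11* and *Igfbpl1* stood higher in KI than in WT libraries at PWK 14.

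The next question was how the regions differ in WT mice. At PWK 1, 8 of 10 genes differed between hippocampus and cortex, against 34.7% of all genes. In hippocampus 5 were higher and 3 were lower. *Igfbpl1* averaged 1219 ± 138 (SD, n = 4) against 119.9 ± 155 (SD, n = 4) in cortex (log2 difference 4.1, SE 0.60), and 4.87 (SE 0.21) without the WT replicate 1 of cortex. *Eomes* was between 167 and 227 against between 7.58 and 28.8, with no overlap (3.88, SE 0.34). *Neurod1* was higher by 1.94 (SE 0.10), *Draxin* by 1.84 (SE 0.19) and *Sox11* by 0.56 (SE 0.12), on the log2 scale. *Stmn1* was lower by 1.03 (SE 0.06), *Tubb3* by 0.62 (SE 0.07) and *Dpysl3* by 0.43 (SE 0.10). Equal replicate numbers of the regions paired the samples at this age, and with that block 9 genes passed, since *Dcx* did too (-0.21, SE 0.04, adjusted p = 0.00403, against adjusted p = 0.162 without it). *Sox4* was at 3343 ± 274 and 3269 ± 399 (SD, n = 4) and its difference of 0.04 had an interval that included 0 (adjusted p = 0.776).

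Adult WT regions were compared in the same way. At PWK 7, 9 of 10 differed (6 higher and 3 lower in hippocampus), against 40.8% of all genes, and at PWK 14, 8 of 10, against 34.6%. *Dcx* was lower in hippocampus by 0.97 (SE 0.08) at PWK 7 and 0.90 (SE 0.08) at PWK 14, where it was at 835 ± 89.4 against 1560.3 ± 129 (SD, n = 4) in cortex. *Dpysl3* was higher in hippocampus by 0.50 (SE 0.06) and 0.37 (SE 0.05), the opposite sign to PWK 1. *Sox11* was higher by 0.33 (SE 0.07) and 0.27 (SE 0.10, adjusted p = 0.0457), the latter lost in 6 of 8 fits, all but those without cortical replicates 3 or 4. *Draxin* at PWK 14 (1.06, SE 0.30) did not pass without cortical replicate 2 or hippocampal replicate 4 (adjusted p up to 0.0533). *Neurod1* was higher by 1.34 (SE 0.09) and 1.04 (SE 0.11). At PWK 28, 5 of 10 genes differed, against 37.8% of all genes. Without the 2 WT libraries of cortex high in olfactory bulb genes 8 of 10 did, with *Igfbpl1* (1.58, SE 0.50, adjusted p = 0.0394), *Eomes* (1.93, SE 0.54, adjusted p = 0.0232) and *Sox11* (0.38, SE 0.10, adjusted p = 0.0209) added, all higher in hippocampus. *Sox4* did not pass at any age in the main fits (adjusted p between 0.0725 and 0.905).

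Levels can be compared between genes only per length, here as the normalized count per kb of the union of annotated exons. In WT hippocampus at PWK 1 the order of these per-kb levels was *Tubb3* (15219 ± 849), *Stmn1* (9132 ± 334), *Dpysl3* (7698 ± 698), *Dcx* (1110.2 ± 122), *Sox4* (697 ± 57.1), *Neurod1* (593 ± 56.3), *Igfbpl1* (375 ± 42.5), *Sox11* (373 ± 37.5), *Draxin* (168 ± 20.9) and *Eomes* (46.9 ± 6.46), as means and SD over 4 libraries. The library ranges of *Sox4* and *Neurod1* overlapped, and those of *Igfbpl1* and *Sox11* did. At PWK 28 *Tubb3* (3194 ± 46.3) and *Stmn1* (2735 ± 139) still led per kb, and *Neurod1* (228 ± 9.28) stood above *Dcx* (61.5 ± 5.12). Of the exon bases of *Sox4*, 54.6% are shared with a non-coding gene on the opposite strand that was not in the table. Both sources name a stranded kit, which keeps the strand of a read. Whether reads of that gene entered the level of *Sox4* was not tested. *Neurod1* shares 7.37% of its exon bases with *Cerkl* on the same strand.

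The central question was whether the genotypes differ. At PWK 1 and PWK 7 none of the 10 genes passed in either region in limma's test. The background was as low, with 0.00546% and 0.00545% of all genes called in cortex and 0.0109% and 0.0218% in hippocampus. The cortical KI replicate 1 of PWK 7, high in olfactory bulb genes, held *Dcx* at 2989.5 and *Eomes* at 118.6, against between 2018 and 2243 and between 3.30 and 8.77 in the other KI libraries. At an unadjusted p under 0.05 there were 0 and 1 of the 10 genes in cortex, against 5.27% and 8.05% of all genes, and 2 and 1 in hippocampus, against 5.46% and 6.22%. The *Dcx* differences of KI against WT at PWK 1 were -0.00 in cortex and 0.04 in hippocampus on the log2 scale. From PWK 14 on, single genes passed.

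**Figure D2:**
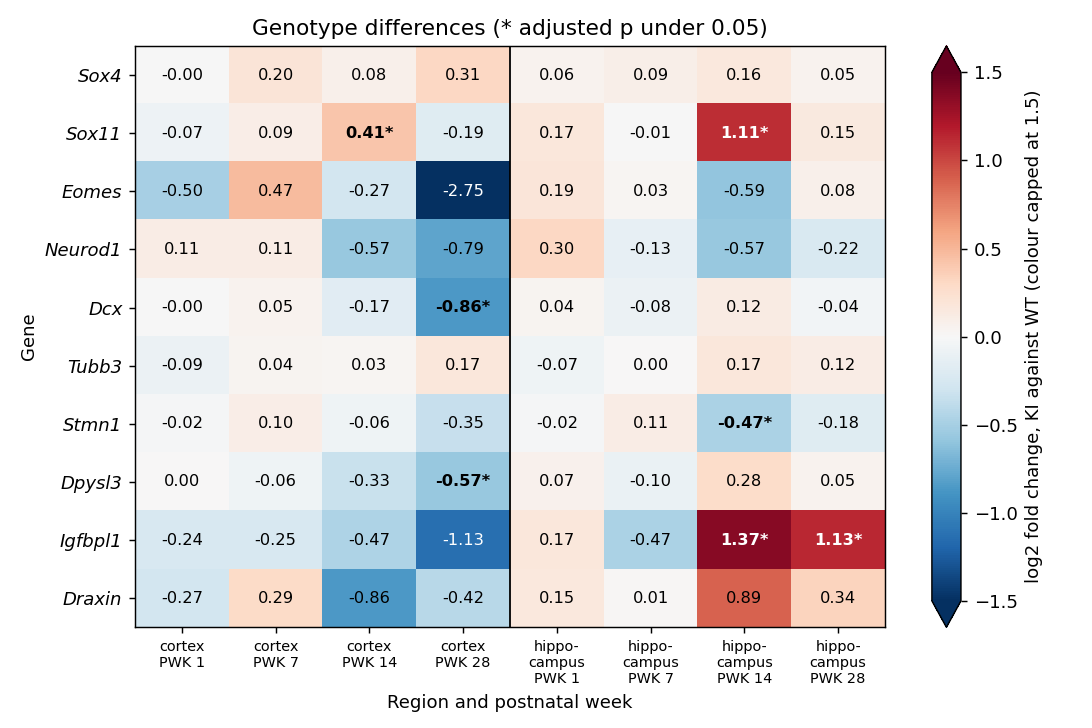
Log2 fold change of KI against WT (colour, and number in each cell) for the 10 genes (rows) in the 8 combinations of region and postnatal week (columns), with 4 libraries per genotype. An asterisk marks limma's adjusted p under 0.05. No gene is marked at PWK 1 or 7, and *Sox11* at PWK 14 and *Igfbpl1* at PWK 14 and 28 carry the marked increases in hippocampus.

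In hippocampus at PWK 14, *Sox11* and *Igfbpl1* were higher and *Stmn1* was lower in KI mice. These were 3 of 10 genes, against 15.6% of all genes tested. The 2 higher genes stand against 7.64% of all genes higher, and the 1 lower gene against 7.95% lower. *Sox11* was at 1043, 1419, 1755 and 944 in KI and at 571, 551, 639.8 and 557 in WT mice. Every KI library lay above every WT library, with a ratio of means of 2.22 and a log2 fold change of 1.11 (SE 0.18, 95% interval 0.72 to 1.5, adjusted p = 0.00406). It passed in all 8 fits that each left out 1 library, with adjusted p up to 0.0184.

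*Igfbpl1* was at 136, 263, 304 and 269.6 in KI and at 114, 101, 121 and 46.2 in WT hippocampus at PWK 14, again without overlap. The ratio of means was 2.54 and the log2 fold change 1.37 (SE 0.34, 95% interval 0.60 to 2.13, limma's adjusted p = 0.0267). It lost the call in 5 of the 8 fits that left out 1 library, those without KI replicates 2, 3 or 4 or WT replicates 1 or 2, with adjusted p up to 0.0683. *Stmn1* was at 3419, 3621, 3444 and 4799 in KI and at 5290.0, 5574, 5494 and 4690.2 in WT mice. KI replicate 4 lay within the WT range, and the log2 fold change was -0.47 (SE 0.11, 95% interval -0.72 to -0.22, adjusted p = 0.0207). *Stmn1* did not pass without KI replicate 3 or without WT replicates 1, 2 or 3 (adjusted p up to 0.0658).

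The other 7 genes did not pass in hippocampus at PWK 14. *Dcx*, which marks immature neurons as *Sox11* does, was at 622, 993, 930.4 and 1163 in KI and at 861, 817, 937 and 723 in WT mice (log2 fold change 0.12, 95% interval -0.27 to 0.51, adjusted p = 0.673). *Neurod1* was at 318, 598, 538 and 599 in KI and at 718, 705, 633 and 939 in WT mice, which did not overlap, but its fold change of -0.57 (SE 0.21) had an adjusted p of 0.0898. *Dpysl3* did not overlap either, with 2720.2, 2087, 2064 and 2005 in KI against between 1747 and 1926 in WT mice (0.28, SE 0.10, adjusted p = 0.0795). In all, 4 of the 10 genes did not overlap between the genotypes, against 23.8% of all genes. *Draxin* was at 36.6, 87.4, 113 and 60.7 against 24.5, 35.3, 37.4 and 55.5 (0.89, SE 0.37, adjusted p = 0.133). *Eomes* (-0.59), *Sox4* (0.16) and *Tubb3* (0.17) had adjusted p of 0.407, 0.295 and 0.152.

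KI replicate 1 of this group, with high *Mki67*, held the lowest *Dcx*, *Neurod1* and *Igfbpl1* and the highest *Dpysl3* of the 4 KI libraries. Without it 4 genes passed in limma's test, *Sox11* (1.20, adjusted p = 0.00208), *Igfbpl1* (1.62, adjusted p = 0.00624), *Draxin* (1.18, adjusted p = 0.0267) and *Stmn1* (-0.42, adjusted p = 0.0291). In that fit 8.98% of all genes were higher and 8.43% lower. *Dcx* was then at a log2 fold change of 0.30 (adjusted p = 0.0793). *Gfap*, a marker of reactive astrocytes, was between 40059 and 131431 in the KI libraries and between 7502 and 9231 in WT, and its part in these results was not tested.

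In hippocampus at PWK 28, *Igfbpl1* was higher in KI mice, the 1 of 10 genes to pass. The background was 15.8% of all genes, with 8.92% higher and 6.91% lower. It was at 113, 114, 79.9 and 88.4 in KI and at 59.8, 43.5, 19.6 and 73.4 in WT mice, without overlap (ratio of means 2.01, log2 fold change 1.13, SE 0.34, 95% interval 0.38 to 1.87, adjusted p = 0.0443). This 1 of 10 genes without overlap stands against 21.5% of all genes. The call is a weak one, since it was lost in 7 of 8 fits that left out 1 library, all but that without WT replicate 4, with adjusted p up to 0.101. *Sox11* was at 503, 934, 446 and 688 in KI and at 619.5, 510.3, 519 and 583 in WT mice, so the genotypes overlapped (0.15, 95% interval -0.27 to 0.57, adjusted p = 0.652). *Dcx* was at 754 ± 21.5 and 778 ± 64.8 (SD, n = 4; -0.04, 95% interval -0.19 to 0.11, adjusted p = 0.742). *Stmn1* was at 4661 ± 487 and 5257 ± 266 (SD, n = 4; -0.18, adjusted p = 0.115).

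In cortex at PWK 14, *Sox11* was higher in KI mice, 1 of 10 genes. The background was 5.18% of all genes, with 2.48% higher and 2.70% lower. It was at 588, 688, 676 and 609 in KI and at 422, 441, 550.0 and 519 in WT libraries, without overlap (ratio of means 1.32, log2 fold change 0.41, SE 0.10, adjusted p = 0.04). The call was lost in 6 of 8 fits that left out 1 library, all but those without KI replicate 1 or WT replicate 3, with adjusted p up to 0.120, and without KI replicate 3 and WT replicate 3 together, the libraries high in olfactory bulb genes, the fold change was 0.45 with an adjusted p of 0.0767. Without KI replicate 2, the library high in striatal genes, which held the highest *Sox11* (688), it was 0.37 (SE 0.11, adjusted p = 0.111). *Dpysl3* was the other of 2 genes without overlap, against 14.2% of all genes, at 878, 1199, 1300.4 and 1134 in KI and between 1349 and 1445 in WT mice (-0.33, SE 0.10, adjusted p = 0.0998). *Neurod1* was at 152, 186, 352 and 341 in KI and at 357, 381, 367 and 332 in WT mice, so that 2 KI libraries were low and 2 lay in the WT range (-0.57, SE 0.24, adjusted p = 0.206).

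In cortex at PWK 28, *Dcx* and *Dpysl3* were lower in KI mice, 2 of 10 genes. The background was 22.2% of all genes, with 12.2% higher and 10% lower. *Dcx* was at 1076, 1371, 932 and 972 in KI and at 1653, 1478, 2251 and 2635 in WT libraries, without overlap (ratio of means 0.543, log2 fold change -0.86, SE 0.18, 95% interval -1.26 to -0.46, adjusted p = 0.00771). The highest values, 2251 and 2635, were those of WT replicates 3 and 4, which were high in olfactory bulb genes. Without these 2 libraries the log2 fold change was -0.54 (SE 0.15) and did not pass, with an adjusted p of 0.0699. *Dpysl3* was at 832, 878, 774 and 822 in KI and at 1051, 1110.2, 1402 and 1393 in WT libraries (ratio of means 0.667, log2 fold change -0.57, SE 0.10, adjusted p = 0.00356), and it passed without the 2 libraries (-0.39, SE 0.09, adjusted p = 0.0444). *Sox4* was at 941, 605, 724 and 756 in KI and at 499.5, 434, 746 and 809 in WT libraries, with an adjusted p of 0.297 for a fold change of 0.31, and passed as higher only without those 2 libraries (0.68, SE 0.17, adjusted p = 0.0472).

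The same 2 WT libraries set the cortical values of *Eomes* at PWK 28. They held 277 and 296, against 2.65 and 1.83 in the other WT libraries and between 0 and 13.6 in KI mice. The log2 fold change of -2.75 (adjusted p = 0.236) became 0.49 (adjusted p = 0.800) without them, and that of *Igfbpl1* moved from -1.13 to -0.15. *Neurod1* was at 103, 250.2, 118 and 231 in KI and at 315, 251, 270.3 and 295 in WT mice, with no overlap by a margin of under 1 count (-0.79, SE 0.27, adjusted p = 0.0583). With *Dcx* and *Dpysl3* it made 3 of 10 genes without overlap, against 25.8% of all genes. *Stmn1* was at 10017, 15594, 10971 and 10776 against between 14405 and 15402 in WT mice (-0.35, SE 0.12, adjusted p = 0.0534). Its KI replicate 2 was above all WT libraries, and without that library *Stmn1* was lower with an adjusted p of 0.000136. That library was set apart by its *Stmn1* value, so this fit is no independent support for a call.

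**Figure D3:**
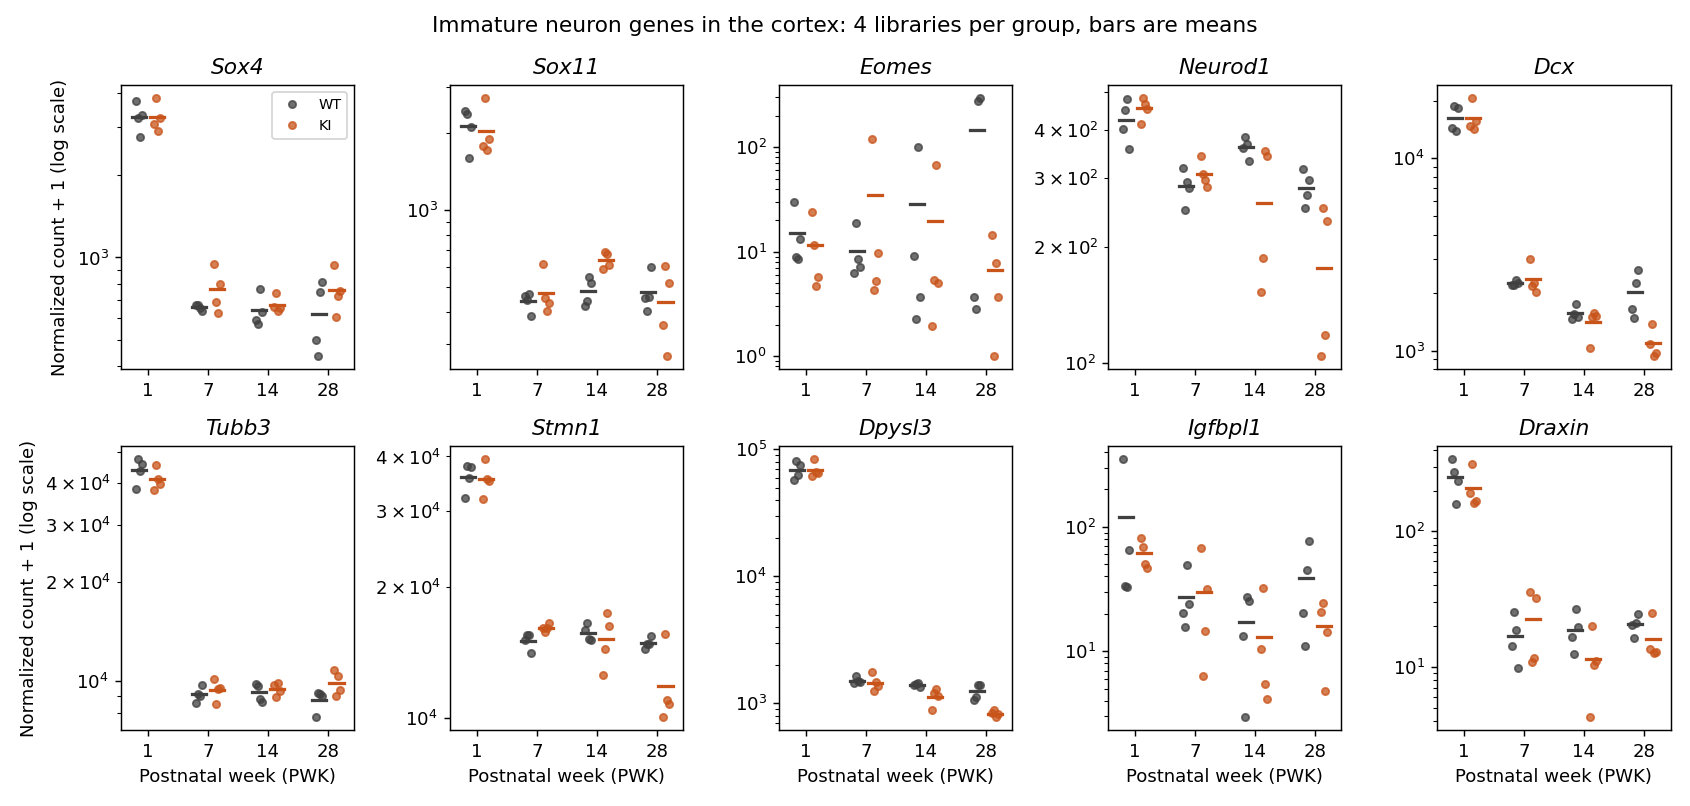
Normalized counts plus 1 (log scale, vertical axis) of the 10 genes in each cortical library, by postnatal week (horizontal axis). Points are libraries, 4 per group, in grey for WT and orange for KI mice, and bars are group means. *Dcx* and *Dpysl3* were lower in all 4 KI libraries at PWK 28, and *Eomes* reached 277 and 296 in 2 WT libraries of that age.

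**Figure D4:**
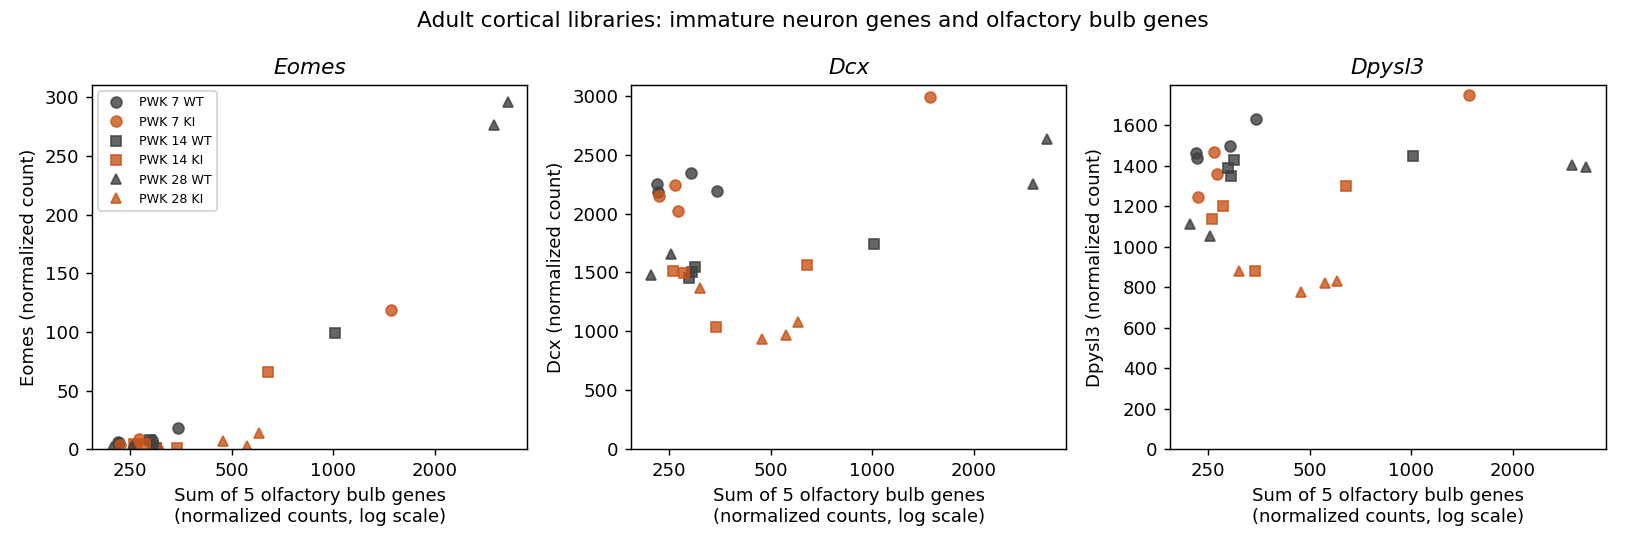
Normalized count of *Eomes*, *Dcx* and *Dpysl3* (vertical axes) against the summed normalized count of 5 olfactory bulb genes (log scale, horizontal axis) in the 24 cortical libraries of PWK 7, 14 and 28. Symbols give the age and colours the genotype, grey for WT and orange for KI. The 2 WT libraries of PWK 28 with sums of 2990.4 and 3284 held the highest *Eomes*, and *Dcx* of 2251 and 2635.

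Whether the genotype difference depended on region or age was tested as an interaction. At PWK 1 and PWK 7 no gene of the 10 passed in limma's test between regions, with 0% and 0.00543% of all genes called, and none of the 10 had an unadjusted p under 0.05, against 3.63% and 5.81% of all genes. At PWK 14 the KI difference of *Dpysl3* was higher in hippocampus than in cortex by 0.61 (SE 0.15, adjusted p = 0.0409), 1 of 10 genes against 2.85% of all genes, and this call was lost in 11 of 16 fits that left out 1 library, all but those without cortical KI replicates 1 or 3 or hippocampal KI replicates 1, 2 or 4. The corresponding value of *Sox11* was 0.70 (SE 0.21, adjusted p = 0.0885), so in this fit its rise in hippocampus was not shown to differ from that in cortex. With a block of genotype and replicate number *Sox11* passed and *Dpysl3* did not, so the outcome for both genes depends on the fit. At PWK 28 the main fit called *Dpysl3* (0.62, SE 0.12, adjusted p = 0.00618) and *Dcx* (0.82, SE 0.21, adjusted p = 0.0328), 2 of 10 against 4.57% of all genes. *Dcx* lost this call in 10 of 16 fits, and kept it without cortical KI replicates 1 or 2, cortical WT replicates 1 or 2, hippocampal KI replicate 2 or hippocampal WT replicate 1. Without the 2 libraries high in olfactory bulb genes, *Dpysl3* passed (0.44, adjusted p = 0.0216) and *Dcx* did not (0.50, adjusted p = 0.118).

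Between PWK 7 and PWK 14 the KI difference in hippocampus changed for 3 of 10 genes, against 10.3% of all genes. It moved up by 1.12 for *Sox11* (SE 0.21, limma's adjusted p = 0.00274) and by 1.84 for *Igfbpl1* (SE 0.43, adjusted p = 0.0126), and it moved down for *Stmn1* (-0.59, SE 0.18, adjusted p = 0.0436). *Stmn1* kept this call in 3 of 16 fits, those without KI replicate 4 or WT replicate 4 of PWK 14 or WT replicate 3 of PWK 7. At PWK 7 hippocampal *Sox11* had been at 554 ± 15.3 in WT and 553 ± 62.1 in KI mice (SD, n = 4). Between PWK 14 and PWK 28 no gene of the 10 passed in hippocampus, where 0% of all genes were called. For *Sox11* the change of the KI difference was -0.96 (SE 0.29, 95% interval -1.57 to -0.35) with an adjusted p of 0.194, and 1 of the 10 had an unadjusted p under 0.05, against 12.4% of all genes. In cortex no gene of the 10 passed for either step (3.18% and 0% of all genes called), with 1 and 2 of the 10 at an unadjusted p under 0.05, against 16.7% and 15.1% of all genes.

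Other genes of the pathway were examined as lists. Of 26 other genes of immature neurons, 5 were higher and 3 lower in KI hippocampus at PWK 14 (median log2 fold change 0.15, against 0.01 over all genes), where 7.64% of all genes were higher and 7.95% lower. Without KI replicate 1 of that group 8 were higher and 3 lower, against 8.98% and 8.43% of all genes. *Nnat*, an imprinted gene of differentiating neurons, was higher by 0.85 (SE 0.12) and *Tubb2b*, a tubulin of migrating neurons, by 0.82 (SE 0.13), while *Bhlhe22*, a bHLH factor of projection neurons, was lower (-0.62, SE 0.16) and *Marcksl1*, an actin regulator, was lower (-0.44, SE 0.06). At PWK 28 there were 6 higher and 4 lower, against 8.92% and 6.91% of all genes, with *Calb2* (0.57, SE 0.16), a calcium-binding protein of young granule neurons and interneurons, and *Tmsb10* (0.55, SE 0.06), an actin-sequestering peptide, higher, and *Cd24a* (-0.45, SE 0.13) and *Marcksl1* (-0.43, SE 0.06) lower. In cortex 5 were higher and 2 lower at PWK 14, against 2.48% and 2.70% of all genes, and 7 higher and 6 lower at PWK 28, against 12.2% and 10%. *Nrep* was higher by 0.85 (SE 0.13) and 0.84 (SE 0.13), *Cd24a* by 0.71 (SE 0.17) and 0.82 (SE 0.15), *Gap43*, a growth cone protein, was lower at PWK 14 (-0.57, SE 0.09), as was *Bhlhe22* (-0.60, SE 0.15), and *Marcksl1* (-1.08, SE 0.17) and *Calb2* (-2.17, SE 0.55) were lower at PWK 28. *Calb2* rested on WT replicates 3 and 4, high in olfactory bulb genes, for much of its size. With both left out, *Calb2* (-0.94, SE 0.20, adjusted p = 0.0324) and *Marcksl1* (-0.90, SE 0.21, adjusted p = 0.0411) passed, and the list gave 5 higher and 3 lower, against 4.74% and 2.97% of all genes. At PWK 14 the list gave 4 higher and 1 lower without KI replicate 2, against 1.21% and 1.14% of all genes. *Cd24a* (limma's adjusted p = 0.0928) and *Bhlhe22* (adjusted p = 0.122) did not pass in that fit. Without KI and WT replicates 3 of PWK 14 both passed, and the list gave 4 higher and 3 lower, against 1.41% and 1.42% of all genes. *Cd24a* passed in opposite directions in the 2 regions at PWK 28. The medians of the list in cortex were -0.05 and 0.01, and in hippocampus at PWK 28 it was 0.05.

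Progenitor genes were mixed. Of 16 genes of stem and progenitor cells, 2 were higher and 4 lower in KI hippocampus at PWK 14, and 3 higher and 2 lower at PWK 28. The shares of all genes were 7.64% higher and 7.95% lower at PWK 14 and 8.92% and 6.91% at PWK 28. Without KI replicate 1 of PWK 14, 3 were higher and 5 lower at that age, against 8.98% and 8.43% of all genes. *Nes* (1.53, SE 0.16), an intermediate filament of progenitors and reactive astrocytes, and *Hes1* (0.58, SE 0.14) were higher at PWK 14, and *Hes5* (-1.62, SE 0.39) and *Dll1* (-1.18, SE 0.27), a target and a ligand of Notch signalling, were lower. At PWK 28 *Vim* (1.01, SE 0.08) and *Neurog2* (0.96, SE 0.26) were higher and *Fabp7* (-0.71, SE 0.12) and *Dll1* (-0.68, SE 0.11) were lower. In cortex 2 of the 16 were lower at PWK 14, *Hes5* (-0.51, SE 0.12) and *Sox2* (-0.35, SE 0.08), and at PWK 28 *Nes* was the 1 higher gene (2.13, SE 0.33) against 4 lower, among them *Dll1* (-1.26, SE 0.28) and *Hopx* (-0.77, SE 0.10). The shares of all genes in cortex were 2.48% higher and 2.70% lower at PWK 14, and 12.2% and 10% at PWK 28. Neither *Hes5* (limma's adjusted p = 0.0826) nor *Sox2* (adjusted p = 0.08) passed at PWK 14 without KI replicate 2. Without KI and WT replicates 3 of PWK 14 they did not pass either (adjusted p = 0.108 and 0.159). That fit gave 0 higher and 0 lower of the 16, against 1.41% and 1.42% of all genes. *Dll1* did not pass at PWK 28 without WT replicates 3 and 4 (-0.91, adjusted p = 0.125). In this last fit 1 of the 16 was higher and 1 lower, against 4.74% and 2.97% of all genes. Of 11 genes of proliferating cells none passed in hippocampus at PWK 14 in limma's test, with a median log2 fold change of 1.24 (0.01 over all genes). Their summed level was 9246 in KI replicate 1 and between 4703 and 5723 in the other KI libraries, against between 4945 and 5386 in WT libraries. *Mki67* was at 1466, 107, 145 and 87.2 in KI and between 55.9 and 66.9 in WT libraries, without overlap. Without KI replicate 1, 3 of the 11 were higher and 0 lower, against 8.98% and 8.43% of all genes, and the median was 0.53. At PWK 28 *Cdk1* was higher (1.1, SE 0.27) and *Ccnd2* lower (-0.29, SE 0.06). *Ccnd2* made up much of the summed level, with a mean of 3250 in WT hippocampus at PWK 28, where the sums were between 4647 and 5052. In cortex *Ccnd2*, a cyclin of progenitors that neurons also express, was lower at both ages (-0.67, SE 0.09, and -0.78, SE 0.08).

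New neurons of the adult dentate gyrus mature into granule cells, which join those made at earlier ages. Of 8 of their genes, 5 were lower and 0 higher in KI hippocampus at PWK 14 (median -0.60), against 7.95% of all genes lower and 7.64% higher, and 3 did not pass. Their sum was between 10501 and 16613 in KI and between 15148 and 21681 in WT libraries, which overlapped. The largest changes were those of *Tdo2* (-1.87, SE 0.42) and *Lct* (-1.17, SE 0.27). In hippocampus 1 was higher and 1 lower at PWK 28, *C1ql2* (0.54, SE 0.09) and *Dsp* (-0.65, SE 0.15), against 8.92% and 6.91% of all genes. In cortex 1 was higher and 1 lower at PWK 14, and 1 higher and 4 lower at PWK 28, against 2.48% and 2.70% and then 12.2% and 10% of all genes. *C1ql2* was higher by 1.55 (SE 0.40) and 3.20 (SE 0.58), *Plk5* was lower (-1.95, SE 0.33, and -3.00, SE 0.31) and *Stxbp6* was lower at PWK 28 (-0.82, SE 0.12). *C1ql2* did not pass without KI replicate 2 at PWK 14 (adjusted p = 0.128) or without WT replicates 3 and 4 at PWK 28 (adjusted p = 0.0545). In the latter fit 0 of the 8 were higher and 2 lower, against 4.74% and 2.97% of all genes. The 6 genes of ventral forebrain neuroblasts gave 2 lower in hippocampus at PWK 14, *Sp8* (-1.46, SE 0.38) and *Dlx2* (-0.85, SE 0.21), and 0 passed in the other 3 comparisons of PWK 14 and 28.

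Markers of other cell types moved in the same comparisons, and their part in the values above was not tested. The shares of all genes to read them against were 7.64% higher and 7.95% lower in hippocampus at PWK 14, 8.92% and 6.91% there at PWK 28, 2.48% and 2.70% in cortex at PWK 14, and 12.2% and 10% there at PWK 28. In hippocampus, 3 of 8 astrocyte genes were higher at PWK 14 and 4 of 8 at PWK 28, with *Gfap* up by 2.75 (SE 0.32) and 2.00 (SE 0.09) and *Aqp4* up by 1.33 (SE 0.37) and 0.62 (SE 0.07). The sum of the 8 was between 97085 and 212902 in KI and between 63975 and 71132 in WT libraries at PWK 14. Much of that difference was *Gfap* itself, at between 40059 and 131431 in KI and between 7502 and 9231 in WT libraries. The median log2 fold change of the 8 genes at PWK 14 was 0.19, against 0.01 over all genes. Microglia genes gave 0 of 7 at PWK 14 and 5 of 7 higher at PWK 28, oligodendrocyte genes 1 and 2 of 6 higher, oligodendrocyte precursor genes 0 and 2 of 8 higher, Cajal-Retzius genes 0 and 1 of 5 higher, and choroid plexus genes 0 of 4 at both ages. Of 7 general neuron genes, 1 was higher and 1 lower at PWK 14 and 3 higher and 1 lower at PWK 28. Without KI replicate 1 of PWK 14, microglia gave 1 of 7 higher and Cajal-Retzius genes 1 of 5 higher at that age. Neurons then gave 2 higher and 1 lower, against 8.98% and 8.43% of all genes. In cortex the astrocyte list gave 2 higher and 1 lower at PWK 14 and 1 higher and 2 lower at PWK 28, neurons 2 of 7 higher at both ages, oligodendrocyte precursors 1 of 8 lower and then 1 higher, microglia 0 and 1 of 7 higher, and Cajal-Retzius genes 0 of 5 and then 1 of 4 higher, while oligodendrocyte and choroid plexus genes gave 0. At PWK 14 without KI replicate 2, and without KI and WT replicates 3, astrocytes gave 2 higher and 0 lower and neurons 1 higher. Precursors gave 1 and 0 lower. The shares of all genes were 1.21% higher and 1.14% lower, and 1.41% and 1.42%. At PWK 28 without WT replicates 3 and 4, astrocytes gave 1 higher and 1 lower, precursors 0 and neurons 3 higher, against 4.74% and 2.97%. Of the 5 olfactory bulb genes 2 were higher and 2 lower in hippocampus at PWK 14, 1 higher and 1 lower at PWK 28, and 0 passed in cortex. The cortical count depended on the libraries that the sum of these 5 genes set apart. Without KI and WT replicates 3 of PWK 14, 1 of the 5 was higher (median log2 fold change 0.50), against 1.41% of all genes. Without WT replicates 3 and 4 of PWK 28, 1 was higher (median 1.02), against 4.74%. Of 4 striatal genes, 2 and 1 were higher in hippocampus and 0 in cortex. At PWK 1 and 7 no gene of any list passed in limma's test.

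Likeness to *Dcx* was measured in adult hippocampus. Over the 24 hippocampal libraries of PWK 7, 14 and 28, the genes whose pattern on log2(value + 1) was most like that of *Dcx*, among 14045 with a mean of at least 50, were *Hnrnpu* (Pearson's r = 0.86), *Gsto1* (0.82), *Luc7l2* (0.82), *Setd5* (0.81) and *Tmem178b* (0.81). None of the 7 other members compared was among these 5, and *Eomes* and *Draxin*, whose means were below 50, were not compared. The r with *Dcx* was 0.44 for *Dpysl3*, 0.40 for *Stmn1*, 0.40 for *Sox4*, 0.37 for *Neurod1*, 0.33 for *Igfbpl1*, 0.01 for *Tubb3* and -0.02 for *Sox11*. The libraries share their ages and genotypes, so these r are descriptions.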

How the data were processed

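The authors sequenced poly(A) or total RNA libraries (the sources differ on the kit) as 101-bp paired reads, quantified them with Salmon against GRCm38 and normalized gene counts with DESeq2. The deposited values are a signal, normalized counts per gene that need not be whole, and raw counts were not used here. Whole reads were not recovered, so no counting error is given. At the best of many trial step sizes, between 24.9% and 55.5% of the low values above 0 in a library lay within 0.1 of a whole read. Chance gives 20.0% for a single fixed step, and the best of many can give more.

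Identifiers were matched to GENCODE vM21 (18420 of 18432). Values were taken as log2(value + 1), genes with a mean of at least 1 over the libraries of a comparison were kept, and limma 3.58.1 (R 4.3.3) with a trend was fitted over all of them, with Benjamini-Hochberg adjusted p under 0.05 as a call. KI against WT used the 8 libraries of 1 age and region, the age course the 16 WT libraries of a region, and interactions 16 libraries. Comparisons that share WT libraries are not independent. The test was checked on simulated data. Named were all 10 genes, up to 2 genes per list, comparison and direction, ranked by size of change, of the called genes whose larger group mean reached 10, and the 5 genes most like Dcx.

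The genes and lists were chosen with earlier results of these data known, and the olfactory bulb and striatal lists after values were seen. Equal replicate numbers paired cortex and hippocampus of WT mice at PWK 1 (correlations of deviations between 0.10 and 0.26 over 12819 genes) and of KI mice at PWK 28 (between 0.24 and 0.44), as seen in the data and not stated in the labels. In KI mice 3 of 4 pairs were above 0.1 at PWK 1 (between 0.09 and 0.32) and at PWK 14 (between -0.03 and 0.46), and 2 of 4 at PWK 7. In WT mice 0, 1 and 0 of 4 were above 0.1 at PWK 7, 14 and 28. Over all groups it was 17 of 32 pairs of regions. Numbers did not pair KI and WT (10 of 32 pairs above 0.1). Alternatives were other pseudocounts, filters, scalings, sample weights, a fit of all 64 libraries, a replicate block and fits that left out libraries.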

Additional observations from a re-analysis of the deposited data

Results flagged for a closer look

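In 9 of 160 groups of 4 libraries, 1 library lay far from the other 3, by the gap to its nearest neighbour relative to the group's range, and chance alone does so in about 1 in 20 groups. In hippocampus at PWK 14, KI replicate 1 was low in *Neurod1* (318) and high in *Dpysl3* (2720.2), and KI replicate 4 was high in *Stmn1* (4799), where it lay within the WT range. WT replicate 2 of that age and region was low in *Sox4* (556), and so was KI replicate 2 at PWK 7 (552). *Tubb3* was high in WT replicate 4 of hippocampus at PWK 1 (30784) and low in WT replicate 1 of cortex at PWK 28 (7772). In cortex, *Dcx* was low in KI replicate 1 at PWK 14 (1034) and *Draxin* was high in KI replicate 2 at PWK 28 (23.98).

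For 6 genotype differences the interaction test between regions or ages passed. Hippocampus exceeded cortex by 0.61 for *Dpysl3* at PWK 14, and at PWK 28 by 0.62 for *Dpysl3* and 0.82 for *Dcx*, all on the log2 scale. In hippocampus the KI difference moved between PWK 7 and PWK 14 by 1.12 for *Sox11*, 1.84 for *Igfbpl1* and -0.59 for *Stmn1*. What lies behind these values was not tested.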

How the results depend on the processing

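Over all alternatives, 386 counts of the 10 genes stayed within 1.5 times the reported count, 67 were lower and 10 higher, and no gene changed direction while called. A reported count of 0 that stayed at 0 is among the 386, so that number does not measure how stable the calls of PWK 14 and 28 are. In a fit of all 64 libraries the cortical counts were 2 (PWK 14) and 5 (PWK 28), and those of hippocampus 5 (PWK 14) and 0 (PWK 28), where 1, 2, 3 and 1 were reported. With no filter on low values they were 0 in cortex at PWK 14 and 0 in hippocampus at PWK 28. Sample quality weights gave 4 in cortex at PWK 28 and 0 in hippocampus at PWK 28. In WT hippocampus, PWK 14 against PWK 7 gave 0 in place of 3 with the 8 libraries of the 2 ages, and PWK 28 against PWK 14 gave 1 in place of 2 with a pseudocount of 8 or total-sum scaling. The interaction of genotype and region at PWK 14 gave 0 in place of 1 with total-sum scaling. Without the cortical libraries high in olfactory bulb genes, an alternative chosen after seeing the data, counts were 0 in cortex at PWK 14, 0 for PWK 28 against PWK 14 in WT cortex, 8 between WT regions at PWK 28, and 0 and 1 for the interaction with region at PWK 14 and 28. The causes were not tested.

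KI and WT libraries share only a number. With the replicate block, 1 of the 10 genes passed in hippocampus at PWK 14 (*Sox11*, with *Igfbpl1* at an adjusted p of 0.0505 and *Stmn1* at 0.0628), and 2 passed for the interaction with region at PWK 14 (*Sox11*, adjusted p = 0.0362, and *Draxin*, 0.0451, but not *Dpysl3*, 0.0947). At PWK 28, where the numbers paired the regions of KI but not of WT mice, a block of genotype and number left both calls of that interaction (*Dpysl3*, adjusted p = 0.00954, and *Dcx*, 0.0280). For WT regions at PWK 1, where the numbers paired the samples, 9 passed.

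With 1 library left out at a time, counts ranged from 0 to 1 (cortex PWK 14), 2 to 4 (cortex PWK 28), 1 to 4 (hippocampus PWK 14) and 0 to 1 (hippocampus PWK 28). For WT ages they ranged from 0 to 2 and 0 to 1 in cortex (PWK 14 against 7, PWK 28 against 14), and from 1 to 3 and 1 to 3 in hippocampus. For the interaction with region they ranged from 0 to 3 at PWK 14 and 1 to 3 at PWK 28, and for that with age in cortex, PWK 28 against 14, from 0 to 1.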
